A study of Homo sapiens with 6 samples.

Results

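RNA immunoprecipitation followed by sequencing (RIP-seq) pulls down a protein with an antibody and sequences the RNA that comes with it. The loci described here belong to 9 genes, chosen by name: TTN, NEB, RYR2, MYH6, MYH7, APOB, ALB, MUC16 and HBB. They were picked as a control, because their transcripts are known from heart, skeletal muscle, liver, lining epithelia or red cell precursors and are not known as abundant in a kidney-derived line. Peaks were taken when they overlapped one of 8 intervals of the hg19 genome by 1 bp or more, with MYH6 and MYH7 in one interval. This gave 153 of the 181131 peaks in the series, 134 of 144374 in the second experiment (RIP-2) and 19 of 36757 in the first (RIP-1).

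The study worked with wild-type HEK293T, a line from human embryonic kidney with the large T antigen of SV40. The 6 libraries were an anti-SF3B4, an IgG and an input library from each of RIP-2 and RIP-1, so that each group held 2 libraries, and no genotype or treatment differed between them. The 4 peak lists are the measurements, an mRNA and a NotExon list per experiment, the second written here as non-exon list. Every list is 1 call without replicate error or read depth, intervals cover counting error only, and no test over samples was possible. Whether the 9 genes were transcribed in these cells was not measured in these lists. The working name of muscle and liver genes covers only part of them, since MUC16 is an epithelial and HBB an erythroid gene.

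SF3B4 is a subunit of SF3b, the module of the U2 small nuclear ribonucleoprotein that helps to select the branch site of an intron before splicing. Splicing acts on transcripts as they are made, so a gene that is not transcribed offers no intron to bind. Loci of such genes are therefore a natural place to look for peaks that arise without the RNA that the assay is meant to recover.

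The intervals add up to 1.58 Mb, which is 0.0509% of the genome. TTN encodes titin, the elastic giant protein that spans the sarcomere, and occupies chromosome 2 from 179390717 to 179672150. NEB encodes nebulin, which runs along the thin filament of skeletal muscle, on chromosome 2 from 152341853 to 152591001. RYR2, the calcium release channel of the cardiac sarcoplasmic reticulum, occupies chromosome 1 from 237205702 to 237997288. MYH6 and MYH7, the cardiac myosin heavy chains, lie next to each other on chromosome 14 from 23851199 to 23904870. APOB, the structural protein of lipoproteins made by liver and intestine, lies on chromosome 2 from 21224301 to 21266945. ALB, serum albumin, was searched on chromosome 4 from 74262831 to 74287129. MUC16, a membrane mucin of epithelia, was searched on chromosome 19 from 8959520 to 9092018, and HBB, the beta chain of adult haemoglobin, on chromosome 11 from 5246696 to 5248301. RefSeq on GRCh38.p14 gives a longer MUC16 (216908 bp, against 132499 bp searched) and a shorter ALB (17196 bp, against 24299 bp), while TTN, NEB, APOB and HBB differ by at most 11 bp in length.

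The clearest result was in the RIP-2 mRNA list. It held 52 segments in the 8 loci, or 33.0 per Mb (95% Poisson interval 24.6 to 43.2), which is 9.93 times the mean of that list, 3.32 per Mb. The RIP-1 mRNA list held 9, or 5.71 per Mb (95% Poisson interval 2.61 to 10.8), which is 1.61 times its mean of 3.54 per Mb. The interval of all loci together lay wholly above the list mean in RIP-2 and held it in RIP-1. The loci were unlike: TTN and MUC16 supplied 23 and 11 of the 52 RIP-2 segments, at 24.6 and 25.0 times the list mean. NEB stood at 7.25 times the list mean but 0.8 times its flanks, and RYR2 at 3.42 times the list mean. APOB held 2 segments, the myosin pair 1, and ALB and HBB 0. Against flanks of the same length the RIP-2 density was 3.71 times as high, and over the list mean it was 6.74 times without TTN and 16.5 times without RYR2. The RIP-1 value turned below 1 by other measures: the covered share of the loci was 0.448 times that of the genome and 0.530 times that of the flanks. Within the upper 50% of the list by score, the density was 0.358 times the mean of that upper 50%, which rests on 1 segment. Summed over the 8 loci, picked as places with little RNA to recover, RIP-2 had more mRNA-list segments per Mb than the list as a whole. The list mean divides by all bases of the hg19 chromosomes, including introns and the stretches between genes. How much of each locus is exon was not measured, and its part in this excess was not tested. The RIP-2 non-exon list stood at 1.20 times its own mean over the same loci.

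TTN had the highest count of any locus in that list. It had 23 of the 52 segments in the RIP-2 mRNA list, 12 peaks in the RIP-2 non-exon list, 3 segments in the RIP-1 mRNA list and 2 peaks in the RIP-1 non-exon list. The RIP-2 segments came to 81.7 per Mb (95% Poisson interval 51.8 to 123), 24.6 times the list mean, and covered 9.70 kb, or 3.45% of the locus. Of 10989 windows of the length of TTN laid end to end over the genome, 2 held at least 23 RIP-2 mRNA-list segments, and the median window held 0. Of these windows 61.9% were empty, and those with a segment held a median of 2. The other long loci stood out less. Of 12412 windows of the length of NEB, 266 (2.14%) held at least its 6 RIP-2 mRNA-list segments. Of 3900 windows of the length of RYR2, 255 (6.54%) held at least its 9. The windows were not matched for exon content and were counted after the data were seen. The 2 flanks of TTN, each as long as the gene, held 3 segments together, or 5.33 per Mb. RefSeq on GRCh38.p14 places 5 noncoding genes over TTN, among them its antisense RNA TTN-AS1, and peaks cannot be divided between them and TTN.

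The RIP-2 segments of TTN were spread along the whole gene. In 5 equal parts of 56.3 kb from the gene start to its end, they numbered 3, 4, 3, 6 and 7, and the median step between neighbours was 11.8 kb. Their scores, which look like the negative log10 of a MACS p-value times 10, ran from 52.07 to 170.76 with a median of 71.31. The strongest lay on chromosome 2 from 179480033 to 179480211 with a score of 170.76. The second, from 179436505 to 179437293, scored 144.37. The RIP-1 segments lay in a single part of the gene, from 179468602 to 179469032 (score 57.90), from 179494027 to 179494170 (score 67.41) and from 179494967 to 179495035 (score 53.92). None of them met a RIP-2 segment.

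**Figure D1:**
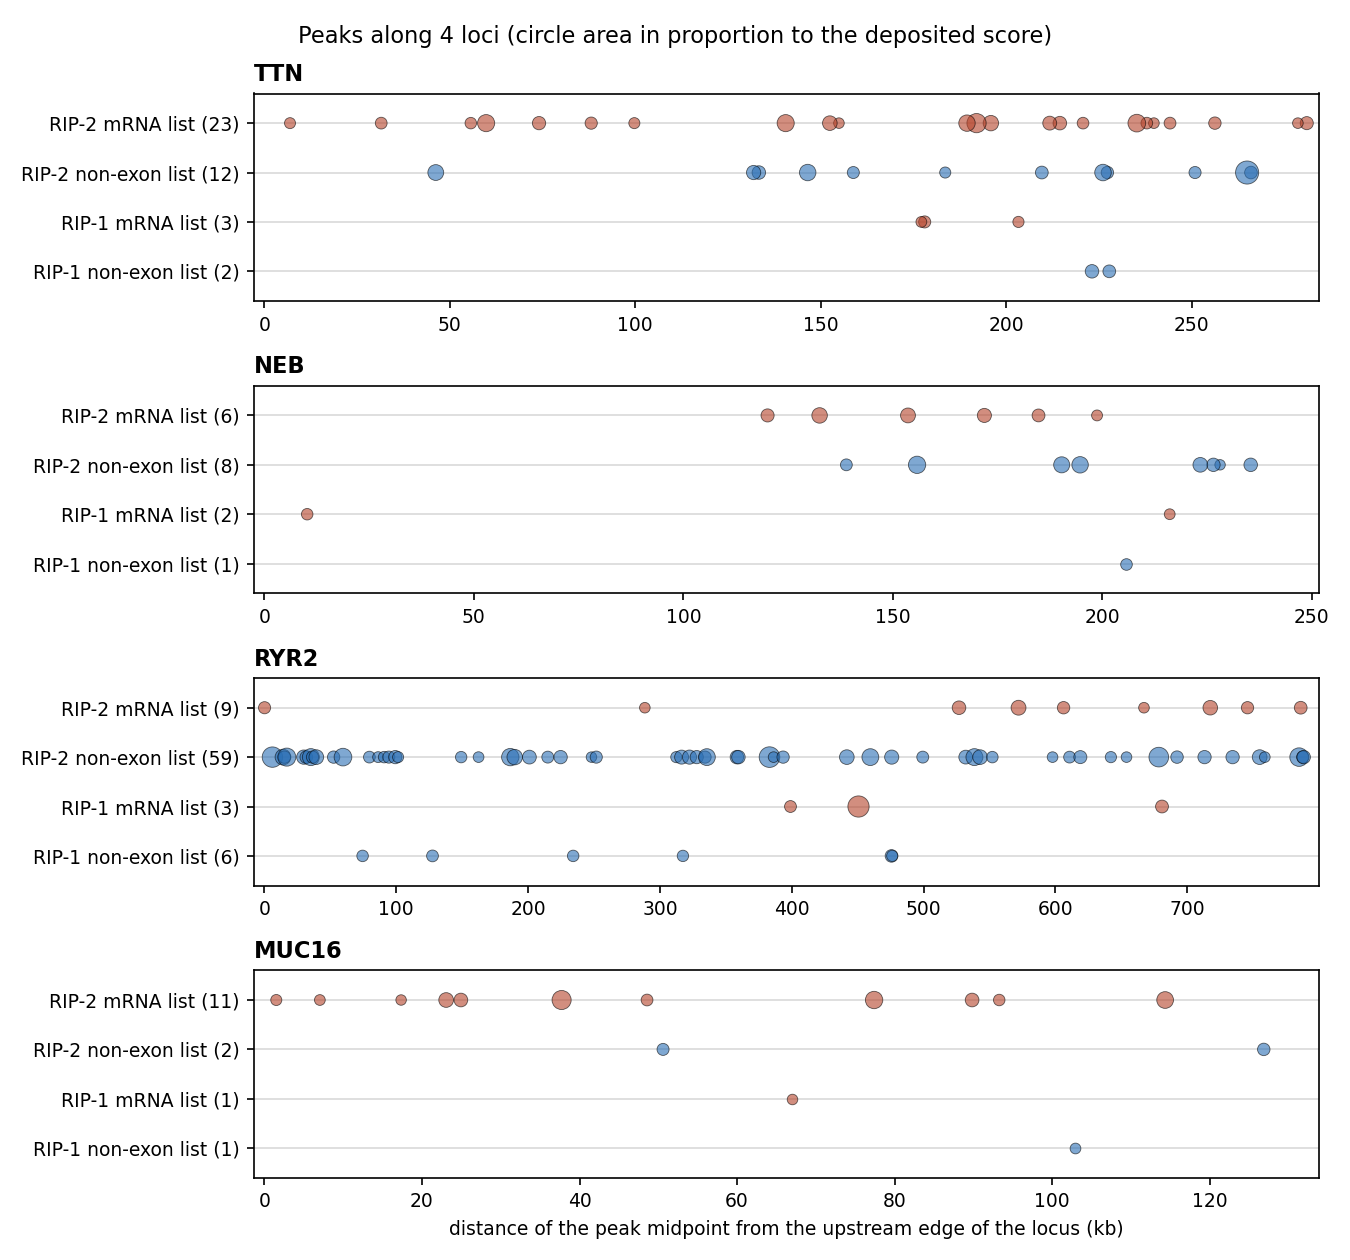
Peaks along TTN, NEB, RYR2 and MUC16, with the distance of each peak midpoint from the upstream edge of the locus in kb on the horizontal axis and a row for each list. Circle area is in proportion to the deposited score and the numbers in brackets count the peaks. RIP-2 mRNA-list segments run along all of TTN (23) and of the interval searched for MUC16 (11), and NEB shows its first RIP-2 peak at 120.113 kb.

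NEB, the other giant sarcomere gene, had fewer. The RIP-2 mRNA list held 6 segments (24.1 per Mb, 95% Poisson interval 8.84 to 52.4) and the RIP-2 non-exon list 8 peaks. The RIP-1 mRNA list held 2 segments and the RIP-1 non-exon list 1 peak. All 14 RIP-2 peaks lay in the last 3 of 5 equal parts of the gene, and the one nearest to the gene start had its midpoint 120.113 kb from it. The RIP-1 segments lay near both ends of the gene, from 152580773 to 152580826 (score 61.28) and from 152374831 to 152374936 (score 53.96). The flanks of NEB held 15 RIP-2 mRNA-list segments (30.1 per Mb), so the RIP-2 segments per Mb of NEB did not exceed those of its surroundings. These segments covered 0.972% of the flanks and 0.233% of NEB. RIP-2 non-exon peaks came to 74.3 per Mb in the flanks and 32.1 per Mb in NEB. In RefSeq on GRCh38.p14 the protein-coding gene RIF1, with a role in DNA replication and repair, overlaps NEB, and peaks in the shared stretch cannot be divided between them.

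The cardiac myosin pair had a single peak in all 4 lists. It was a RIP-2 mRNA-list segment on chromosome 14 from 23867936 to 23867939, with a score of 63.77 and a deposited width of 3 bp; it is named here after its values were seen. It began 16.7 kb above the lower edge of the interval. RefSeq places MYH6 at the lower coordinates and gives it a length of 26287 bp, so the segment falls in MYH6 if the order and lengths hold in hg19. The RIP-2 non-exon list would hold 2.32 peaks in an interval of this length at its mean density and held 0 there, which a 95% Poisson interval allows for up to 3.69.

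RYR2 was the longest locus, and most of its peaks were non-exon peaks. It held 9 segments of the RIP-2 mRNA list, 59 peaks of the RIP-2 non-exon list, 3 segments of the RIP-1 mRNA list and 6 peaks of the RIP-1 non-exon list. The RIP-2 non-exon density was 74.5 per Mb (95% Poisson interval 56.7 to 96.1), 1.72 times the list mean of 43.3 per Mb. The surroundings were equally dense, at 70.7 per Mb in the flanks, and the mean of chromosome 1 was 57.5 per Mb. RIP-2 mRNA-list segments came to 11.4 per Mb in RYR2 and 6.32 per Mb in its flanks.

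Within RYR2 the RIP-2 non-exon peaks were most numerous at the gene start. In 5 equal parts of 158 kb they numbered 18, 10, 11, 9 and 11. The strongest by score lay on chromosome 1 from 237588488 to 237589085, with a score of 196.46 and a deposited fold enrichment over the control of 17.83. The strongest RIP-1 mRNA-list segment of RYR2 ran from 237656253 to 237656326 with a score of 207.76, the only one of the 9 RIP-1 segments in these loci above the list median of 79.9. The other RIP-1 segments of RYR2 ran from 237604618 to 237604783 (score 65.12) and from 237886427 to 237886562 (score 76.19). The nearest RIP-2 peak of any list to the strongest one was 8.66 kb away.

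A RIP-2 mRNA-list segment of RYR2 began at 237205701, 1 bp below the lower edge of the locus, and ended at 237205869 with a score of 68.16. A TTN segment likewise began at 179390715, 2 bp below the lower edge of the locus, where the gene on the minus strand ends. Whether such segments keep the edges of the called peak was not tested. The 250 bases before the RefSeq start of RYR2 and of TTN are shown because RYR2 had a segment at its start and TTN, the gene with the most segments, had its first one 6.89 kb inside. They are from RefSeq on GRCh38.p14, strand of the gene, chromosome 1 and chromosome 2, and capitals mark CG pairs:
RYR2: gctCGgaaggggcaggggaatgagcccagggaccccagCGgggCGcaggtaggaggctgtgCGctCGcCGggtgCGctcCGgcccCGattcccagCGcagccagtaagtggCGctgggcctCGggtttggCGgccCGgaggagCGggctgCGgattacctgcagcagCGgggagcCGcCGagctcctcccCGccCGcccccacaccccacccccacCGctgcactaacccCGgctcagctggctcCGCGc
TTN: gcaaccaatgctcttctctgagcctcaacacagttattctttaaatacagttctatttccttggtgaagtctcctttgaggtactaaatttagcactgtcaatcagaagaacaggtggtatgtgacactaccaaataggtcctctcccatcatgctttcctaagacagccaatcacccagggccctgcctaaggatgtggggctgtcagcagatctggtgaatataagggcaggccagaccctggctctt
The RYR2 stretch had 75.2% G and C and 25 CG pairs, and the TTN stretch 46.8% and 0. Of the stretches not printed, NEB had 2 CG pairs, ALB 3, MYH6 3 and each MUC16 promoter 6. A link between these counts and the place of segments was not tested. Over 35116 RefSeq promoters the medians were 58.0% and 11 CG pairs, and 10.1% had a G and C content at least as high as RYR2. RefSeq gives RYR2 a length of 791805 bp, against the 791587 bp searched, so the printed stretch may end upstream of the segment.

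The liver genes differed from each other. APOB had 2 segments in the RIP-2 mRNA list (46.9 per Mb, 95% Poisson interval 5.68 to 169), 1 peak in the RIP-2 non-exon list and 0 in both RIP-1 lists. The stronger segment lay on chromosome 2 from 21246396 to 21246564 with a score of 144.59. The other, named after its values were seen, ran from 21234591 to 21235104 with a score of 56.80. The non-exon peak lay between them, from 21243214 to 21243791, with a score of 52.88 and a fold enrichment of 6.26. ALB had 0 peaks in all 4 lists, and so did HBB. Their intervals are short: at the mean of the RIP-2 non-exon list, the densest list, ALB would hold 1.05 peaks and HBB 0.0696, so an absence there was not detectable.

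MUC16 had a RIP-2 mRNA-list density much like that of TTN. It had 11 segments in the RIP-2 mRNA list, 2 peaks in the RIP-2 non-exon list, 1 segment in the RIP-1 mRNA list and 1 peak in the RIP-1 non-exon list. The RIP-2 segments came to 83.0 per Mb (95% Poisson interval 41.4 to 149), 25.0 times the list mean and 16.5 times the mean of chromosome 19, while the flanks held 0. Since RefSeq gives a longer MUC16 than the interval searched, its upper edge may not be the gene start, and part of a flank may lie inside the gene. Of 23352 windows of the length of MUC16, 20 held at least 11, while 76.4% were empty and those with a segment held a median of 1. These windows too were not matched for exon content. In 5 equal parts of 26.5 kb from the upper edge of the interval the RIP-2 segments of MUC16 numbered 5, 2, 1, 2 and 1. The strongest lay on chromosome 19 from 9054234 to 9054348 (score 168.31), and the next ran from 9014531 to 9014704 (score 139.47). The RIP-1 segment, from 9024965 to 9024998, had a score of 51.45, close to the floor of 50 in the lists. The non-exon density of MUC16 in RIP-2 was 15.1 per Mb (95% Poisson interval 1.83 to 54.5), against 64.2 per Mb in its flanks.

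**Figure D2:**
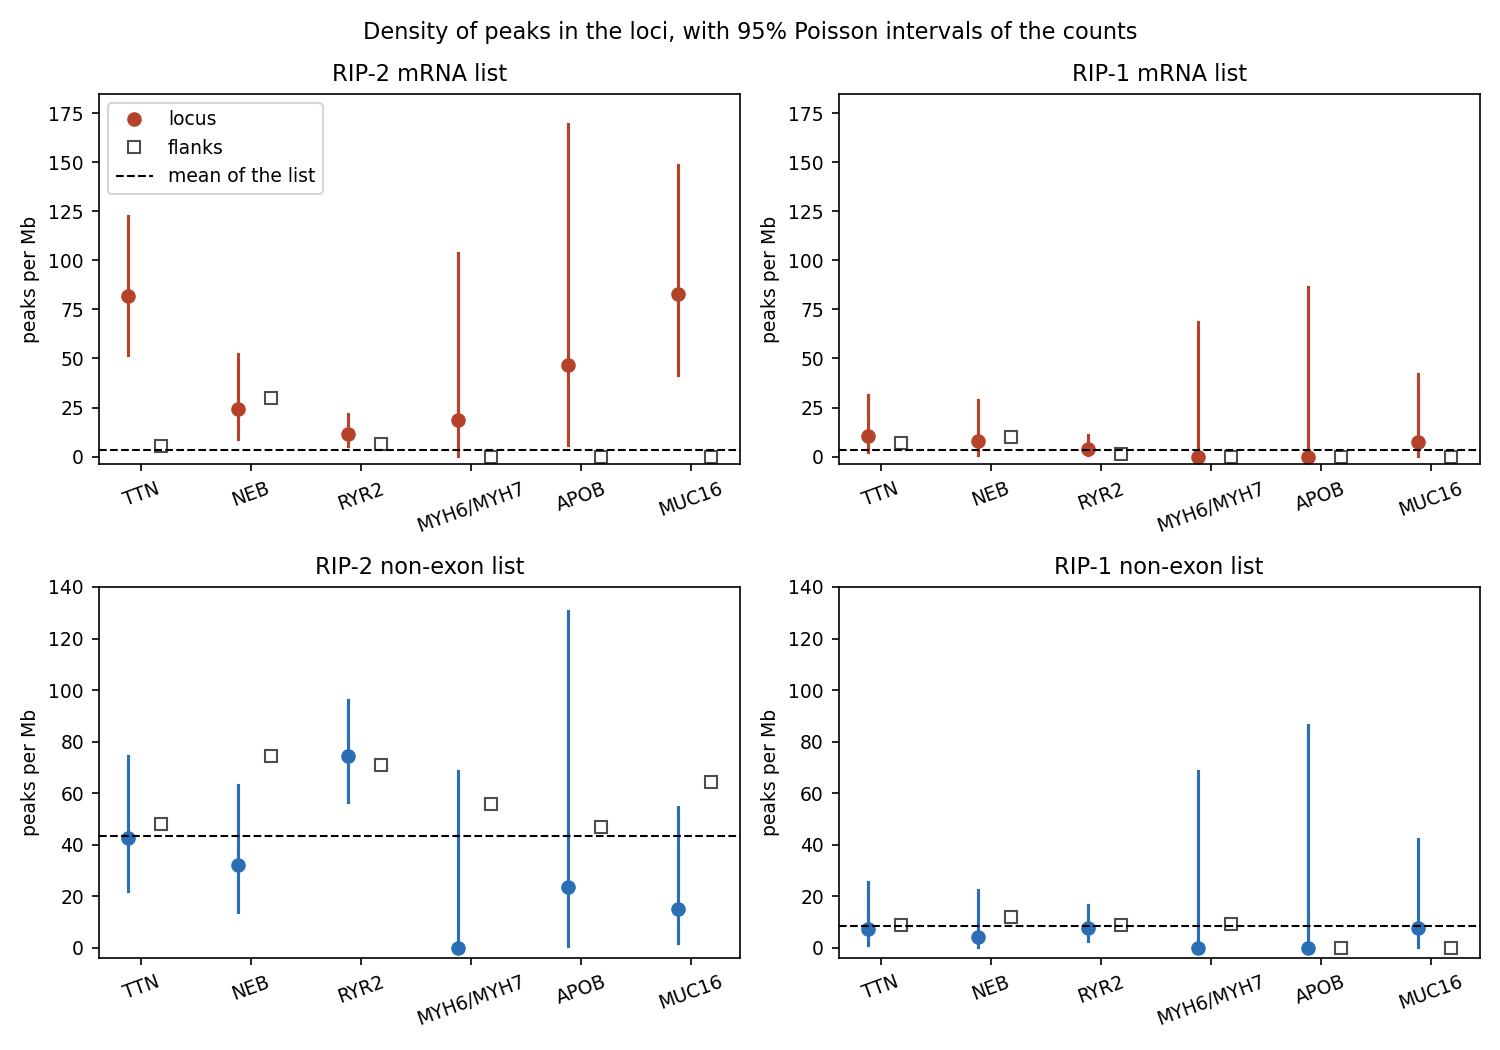
Peaks per Mb in 6 loci (filled circles, bars are 95% Poisson intervals of the count), in both flanks of the same length together (open squares) and on average over the list (dashed line), for each of the 4 lists. TTN and MUC16 stand at 81.7 and 83.0 per Mb in the RIP-2 mRNA list, above a mean of 3.32, while their non-exon densities do not stand above the list mean; ALB and HBB, with 0 peaks, are not drawn.

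The non-exon lists stayed nearer to their means. Over the 8 loci the RIP-2 non-exon list held 82 peaks, 52.0 per Mb, which is 1.20 times its mean (95% Poisson interval 0.955 to 1.49). The RIP-1 non-exon list held 10, 6.34 per Mb, which is 0.761 times its mean of 8.33 per Mb (95% Poisson interval 0.365 to 1.40). Both intervals hold 1. RYR2 supplied 59 of the 82, and without it the RIP-2 value was 0.676 times the mean.

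The division of the call between its lists also differed in RIP-2. In the loci, 52 of 134 RIP-2 peaks stood in the mRNA list (38.8%, 95% Wilson interval 31.0 to 47.3), against 28 of 231 in the flanks (12.1%, 8.52 to 17.0) and 7.12% of the whole call. The share was 84.6% in MUC16 (11 of 13), 65.7% in TTN (23 of 35), 42.9% in NEB (6 of 14) and 13.2% in RYR2 (9 of 68). In RIP-1 it was 9 of 19 in the loci (47.4%, 27.3 to 68.3), against 28.9% in the flanks and 29.8% of the whole call, a difference within counting error. By covered bases the RIP-2 loci had 23.8% in the mRNA list and the whole call 3.33%, while the RIP-1 loci had 13.1% and the whole call 18.0%, so in RIP-1 the order turned. The genes differ in how much of their length is exon, which was not measured here, and its part in these shares was not tested.

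**Figure D3:**
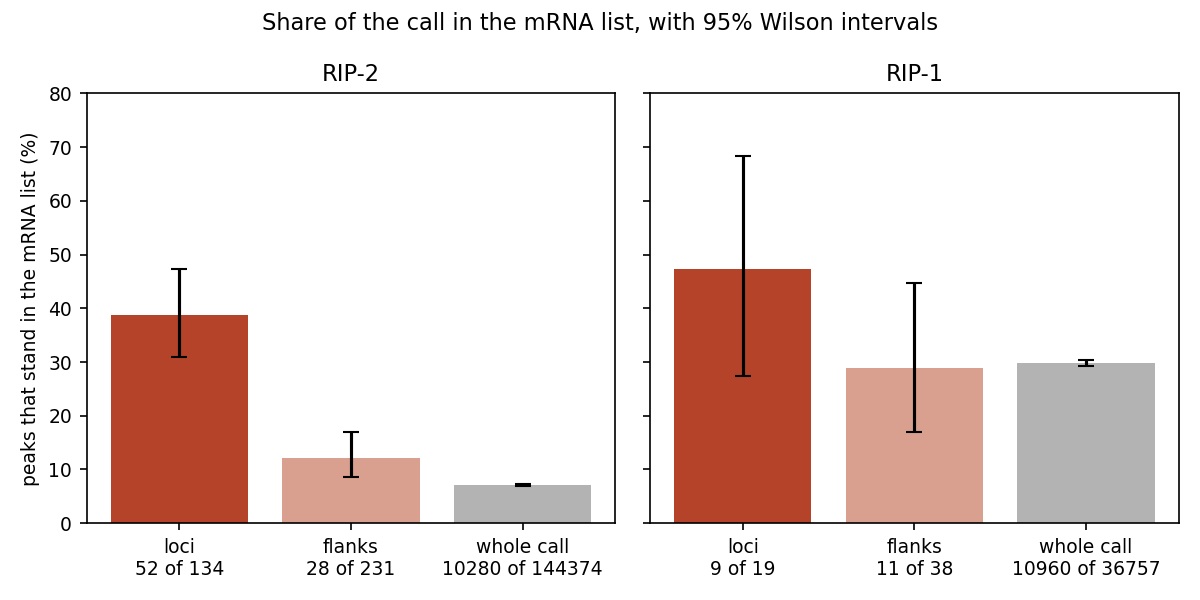
Share of peaks that stand in the mRNA list, in percent with 95% Wilson intervals, for the loci, their flanks and the whole call of RIP-2 (left) and RIP-1 (right). In RIP-2 the loci reach 38.8% against 7.12% of the whole call, and in RIP-1 the interval of the loci (27.3 to 68.3) holds the value of the whole call, 29.8%.

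The experiments differed in these loci more than their mRNA lists did on the whole. RIP-2 held 5.78 times as many mRNA-list segments there as RIP-1, against 0.938 times over the whole lists. RIP-2 gave 52 of the 61 segments of both experiments in the loci (85.2%, 95% Wilson interval 74.3 to 92.0), 28 of 39 in the flanks (71.8%, 56.2 to 83.5) and 48.4% over the whole lists. RIP-2 had more segments than RIP-1 in each of the 6 loci with any. For non-exon peaks the ratio of RIP-2 to RIP-1 was 8.20 in the loci, 7.52 in the flanks and 5.20 over the whole lists. Library depth is unknown, and its part in these ratios was not tested.

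No mRNA-list segment of these genes was found in both experiments. Of the 52 RIP-2 segments 0 overlapped a RIP-1 segment by 1 bp or more on the same strand, against 6.91% of the whole list. The Wilson interval of 0 in 52 reached 6.88%, just below the list share, so a lower share in these loci was not clear. Of the 9 RIP-1 segments 0 overlapped a RIP-2 segment, against 6.41% of the whole list, and the Wilson interval of 0 in 9 reached 29.9%. The closest pair of segments was 7.07 kb apart. In the flanks 3 of 11 RIP-1 segments were shared.

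Non-exon peaks met at a pair of places. Among 10 RIP-1 non-exon peaks, 3 had a RIP-2 partner in the non-exon list (30.0%, 95% Wilson interval 10.8 to 60.3), against 18.1% of the whole list and 8 of 27 in the flanks. Among 82 RIP-2 peaks, 2 had a RIP-1 partner (2.44%), against 3.63% of the whole list. With counts this small neither share is apart from its list. In TTN the RIP-2 peak on chromosome 2 from 179444311 to 179445353 (score 71.28, fold enrichment 5.20) lay over the RIP-1 peak from 179443533 to 179445111 (score 75.17, fold enrichment 4.24), with 801 bp in common. In RYR2 the RIP-2 peak on chromosome 1 from 237681218 to 237681726 (score 92.39, fold enrichment 7.65) touched a pair of RIP-1 peaks. These ran from 237681073 to 237681546 (score 73.62, fold enrichment 8.70) and from 237681671 to 237682089 (score 57.86, fold enrichment 7.05).

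The peaks of these loci had scores near the middle of their lists in RIP-2 and mostly below the list median in RIP-1. In the RIP-2 mRNA list their median score was 75.7, against 79.6 for the whole list, and 23 of 52 lay above the list median (44.2%, 95% Wilson interval 31.6 to 57.7). In the RIP-1 mRNA list the median was 61.3, against 79.9 for the list, and 1 of 9 lay above the list median (11.1%, 1.99 to 43.5). In the non-exon lists the medians were 81.4 in RIP-2, against 80.6 for the list, and 62.0 in RIP-1, against 66.9. Scores of at least 200 were found in 0 of the 52 RIP-2 segments, against 5.74% of the list. The Wilson interval of 0 in 52 reached 6.88%, so a lower share in these loci was not clear. In RIP-1 such scores were found in 1 of the 9 segments, the RYR2 one named above, against 11.7% of the list.

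**Figure D4:**
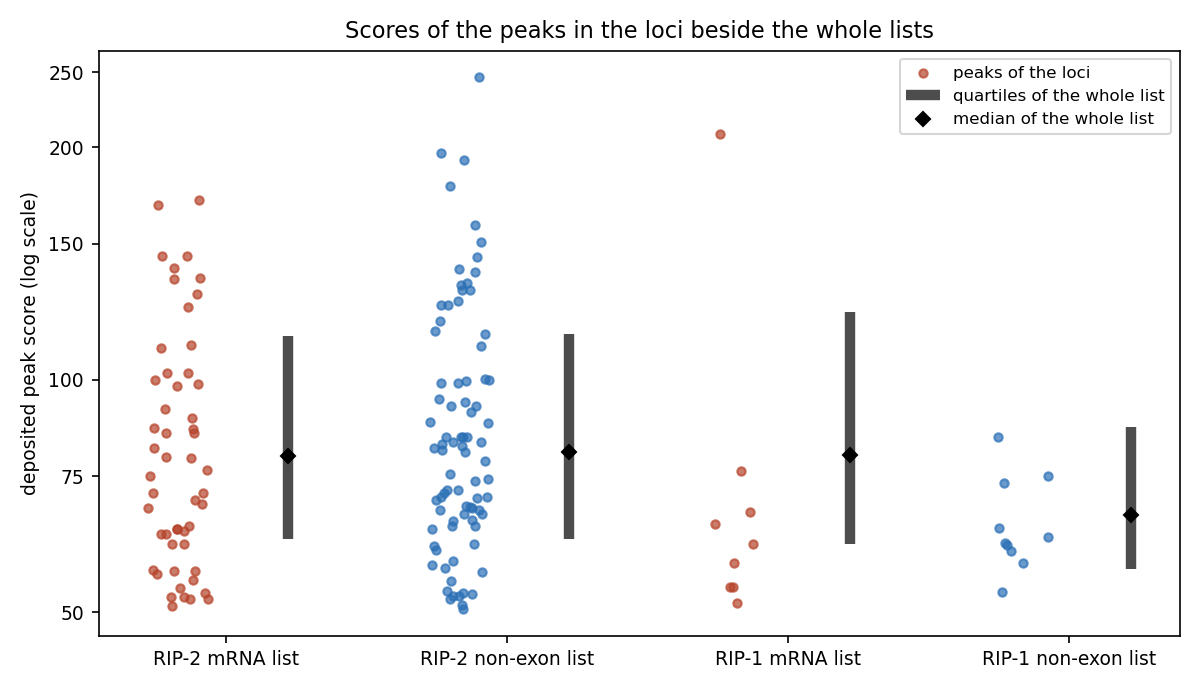
Deposited score, on a log scale, of each peak in the loci (dots, spread sideways for display) beside the quartiles (bar) and median (diamond) of the whole list, for the 4 lists. The peaks of the loci range from 50.51 to 246.13, in RIP-2 they span the quartiles of the lists, and in the RIP-1 mRNA list 8 of 9 lie below the list median.

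The highest-scoring non-exon peaks of TTN were the RIP-2 peak on chromosome 2 from 179406568 to 179407737 (score 246.13, fold enrichment 13.48) and the RIP-1 peak from 179448244 to 179449728 (score 84.35, fold enrichment 4.88). In NEB they were the RIP-2 peak from 152434869 to 152435520 (score 138.01, fold enrichment 8.19) and the RIP-1 peak from 152384982 to 152385489 (score 62.58, fold enrichment 8.29). In MUC16 they were the RIP-2 peak on chromosome 19 from 8964817 to 8965472 (score 71.92, fold enrichment 10.60) and the RIP-1 peak from 8988907 to 8989275 (score 53.21, fold enrichment 5.42). The median fold enrichment in the loci was 7.71 in RIP-2, against 8.19 for the whole list, and 6.27 in RIP-1, against 6.55.

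By the false discovery rate (FDR) in the lists, 0 of the 92 non-exon peaks of these loci had a value of 5% or less, against 0.0% of the whole RIP-2 list and 0.678% of the whole RIP-1 list. All 10 RIP-1 peaks had 100%, against 94.1% of that list. In RIP-2 30 of 82 had 100% (36.6%), against 41.6% of the list, and the lowest was 68.6%. The deposited fold enrichments repeated. Of the 82 RIP-2 values 8 were exactly 9.64, and the 5 commonest values of the whole RIP-2 list made up 35.4% of the loci and 33.3% of the list.

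Segments of the mRNA list had a median width of 212 bp in the loci against 160 bp in the list in RIP-2. The upper quartiles there were 504.5 bp and 323 bp. In RIP-1 the segments were shorter, with a median of 105 bp against 216 bp. Segments under 80 bp made up 10 of 52 in RIP-2 (19.2%, 95% Wilson interval 10.8 to 31.9; list 14.4%) and 4 of 9 in RIP-1 (44.4%, 18.9 to 73.3; list 6.55%). None reached 2 kb, which 0.749% of the RIP-2 and 3.51% of the RIP-1 list did. All 50 RIP-2 and all 9 RIP-1 segments in genes with a strand in the RefSeq promoter table carried the strand of the gene. How the lists were given a strand is not stated in the sources used here, so it is not read as the strand of the RNA.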

How the data were processed

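Per the submitters' processing notes, reads were handled with cutadapt 1.9.3 and HISAT2 2.0.4 on hg19. The authors deposited peak lists per experiment. Peak names carry the MACS prefix; the sources used here give neither settings nor the control library. The deposited score is read as 10 times the negative log10 of a p-value, the deposited fold enrichment as a ratio over the control, and the deposited FDR as a percent, from column order and values, since the lists have no header. The depth of every library is unknown. Non-exon positions count from 1; mRNA-list positions are as deposited, uncertain by 1 bp.

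Peaks were assigned to loci by an overlap of 1 bp (Python 3.11.15, pandas 2.3.3, scipy 1.17.1). List means divide by the length of the hg19 chromosomes. Each flank is as long as its locus. Intervals are 95% Wilson or exact Poisson. The overlap steps were tested on simulated intervals. Gene lengths, strands and promoters are from RefSeq, GRCh38.p14; 6 of 9 members had a promoter in the table. Named peaks are all mRNA-list segments of a list up to 10, otherwise the 5 strongest, all shared pairs, and the strongest non-exon peak of each locus and experiment. Members and lists were chosen with earlier results of these data known, and the window counts, position classes and repeated fold values were added after the data were seen. Sequences of the peaks, exons and other genes of these pathways were not analysed here.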

Additional observations from a re-analysis of the deposited data

How the results depend on the processing

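Of 59 alternative values other than those that leave out a locus, 46 stayed within their limit (1.5 times for counts and covered shares, the counting interval otherwise). Keeping the upper 50% of each list by score left 23 RIP-2 and 1 RIP-1 mRNA-list segments and 42 and 3 non-exon peaks, with fewer peaks by construction. The RIP-1 mRNA-list density was then 0.358 times the mean of the upper 50%. Against the flanks, the RIP-2 mRNA-list density was 3.71 times and the covered share 4.64 times. For RIP-2 non-exon peaks the same ratios were 0.808 and 0.784 times. Against the list mean and the covered share of the genome they were 1.20 and 1.22 times, so both crossed 1. The counting interval of the 1.20 already held 1, and the cause was not tested. With the RIP-2 non-exon list shortened by score to the length of the RIP-1 list, 13 peaks stood in the loci and 0 pairs were shared from either side. By covered bases the mRNA-list share was 23.8% in RIP-2 and 13.1% in RIP-1.

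Leaving out each locus in turn moved the density over the list mean between 6.74 (without TTN) and 16.5 (without RYR2) in the RIP-2 mRNA list, between 0.676 (without RYR2) and 1.29 in the RIP-2 non-exon list, between 1.31 and 2.16 in the RIP-1 mRNA list, and between 0.611 and 0.813 in the RIP-1 non-exon list. Median scores stayed between 71.3 and 79.1, 79.5 and 83.1, 55.9 and 65.1, and 61.3 and 68.9 in the same order of lists, and median fold enrichments between 7.24 and 7.71 in RIP-2 and between 5.15 and 6.90 in RIP-1. Counting mRNA-list starts from 0 was added after seeing the data. Of 80 values for single loci 62 stayed within 1.5 times. No paired analysis was possible because the lists hold no values of single libraries. The other genes of these pathways need an hg19 annotation and were not analysed here.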
